A study of Mus musculus with 18 samples.

Results

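The comparison described here concerns cells without GFP, sorted from embryoid bodies (floating aggregates of differentiating embryonic stem cells) on days 7 and 8, set against the same fraction on days 5 and 6. It was chosen by the sample titles and uses 8 of the 18 arrays of the series, 4 for days 7 and 8 and 4 for days 5 and 6, with 1 array for each day in each of 2 batches. The cells were mouse embryonic stem cells of line D3. A stable clone carried GFP behind an enhancer of Nkx2-5, a transcription factor gene of heart progenitors, and the minimal promoter of Hsp68. Before differentiation the fibroblast feeder layer was removed and leukemia inhibitory factor withdrawn, the embryoid bodies were formed in hanging drops, and the medium was supplemented with ascorbic acid, all of which the days 7 and 8 and the days 5 and 6 arrays share. The GFP-negative fraction is therefore defined by what it lacks, a reporter signal in 1 clone, and it holds whatever else the embryoid bodies contained. The 8 arrays of GFP-positive cells of the same days and batches serve below only as a comparison, and 2 arrays of drug-selected cardiomyocytes are not used.

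As background, an embryoid body passes through stages that resemble those of the early embryo. Cells leave the pluripotent state, pass through a state like the primitive streak, where mesoderm and endoderm form, and then give rise to blood, vessel, muscle, connective tissue and gut-like cells. The first blood in the mouse embryo forms in the yolk sac, where primitive red cells with embryonic globins, megakaryocytes and macrophages appear close together. Connective tissue cells of mesodermal origin deposit fibrillar collagens and small leucine-rich proteoglycans.

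Expression was measured on Affymetrix arrays as MAS5 signal, a background-corrected brightness with the same trimmed mean on every array. Differences are given as log2(signal + 6.8), days 7 and 8 minus days 5 and 6, with the batch as a block, and the error after ± is the standard error of limma's fit over the 8 arrays. On that scale the change of a dim gene is understated. Differences among signals below 6.8 are compressed, and the order of such signals may be noise. Signals of each stage are listed per batch, with the earlier of the pair of days first. Nothing in the titles says that the arrays stem from separate cultures. The p-values therefore rest on the scatter of these 8 arrays alone, which may be technical, and the small number of arrays limits their precision. In bulk RNA, fewer cells of a type and less RNA per cell cannot be told apart.

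Median signal was 22.4 and 25.7 in batch 1 and 20.5 and 24.3 in batch 2 on days 7 and 8, against 19.3 and 19.8 in batch 1 and 23.3 and 22.9 in batch 2 on days 5 and 6. The ratio of 3′ to 5′ signal of Gapdh, a measure of RNA integrity and amplification, was 1.36 to 1.55 on days 7 and 8 and 1.13 to 1.35 on days 5 and 6, without overlap. The corresponding Actb ratio overlapped, at 1.56 to 1.82 on days 7 and 8 and 1.63 to 1.85 on days 5 and 6. The part of RNA integrity in the results was not tested. The batches were not in step. Across 18193 genes the batch 1 array of day 5 correlated more closely with the batch 2 array of day 6 (r = 0.9803) than with the batch 2 array of its own day (r = 0.9585). Likewise, day 6 of batch 1 stood nearer to day 7 of batch 2 (0.9814) than to day 6 of batch 2 (0.9693), and day 7 of batch 1 nearer to day 8 of batch 2 (0.9775) than to day 7 of batch 2 (0.9729). These correlations are across genes, which are not independent replicates.

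**Figure D1:**
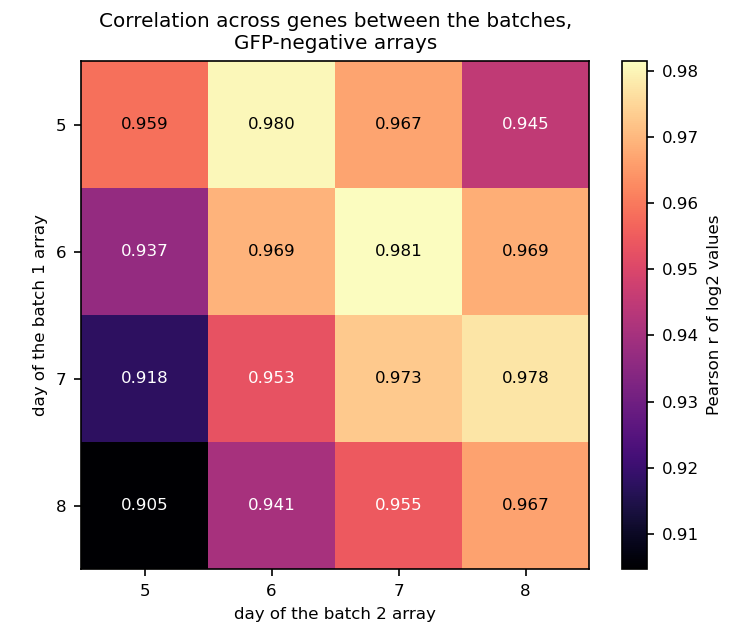
Pearson correlation across 18193 genes between each batch 1 array (vertical axis, day) and each batch 2 array (horizontal axis, day) of GFP-negative cells, on the log2 scale. For days 5, 6 and 7 of batch 1 the highest value in the row lies 1 day later in batch 2, and the lowest value, 0.905, is between day 8 of batch 1 and day 5 of batch 2.

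Between the stages, some genes of blood, macrophages, platelets and the fibrillar matrix rose on days 7 and 8, and some of the pluripotent state and of the primitive streak fell. Of 12352 genes tested, 444 rose (3.59%) and 141 fell (1.14%), which together is 4.74% at an adjusted p under 0.05 by limma with Benjamini-Hochberg adjustment. The change was at least 2-fold for 351 of the genes that rose and for 61 of those that fell. The median difference of all genes tested was -0.01, with a median standard error of 0.21. At an unadjusted p under 0.05 stood 3276 genes, 26.5% of those tested. Of the genes that rose 108 reached the signal filter on fewer than 2 of the early arrays, and of those that fell 11 did so on fewer than 2 of the later arrays, so these entered the test only through the stage in which they were high. Among all 12352 genes tested, 976 fell short in this way on the early arrays and 699 on the later ones. Signs and medians of lists that hold such genes may in part be set by the filter. In 584 of the 585 genes, both later arrays stood on the same side of both earlier arrays within each batch, and the sign was the same in both batches for all 585. The same separation within both batches held upwards for 12.4% and downwards for 9.58% of all genes tested, and the 4 later arrays stood all above the 4 earlier ones for 7.25% of genes and all below for 6.57%.

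The calls depended on single arrays. All 585 genes kept their sign, and an unadjusted p under 0.05, when any single one of the 8 arrays was left out, but they had been called on these same arrays. The adjusted p-values lay close together just under the threshold, the lowest being 0.02981. No gene passed limma's threshold without day 5 of batch 1 (2203 genes at an unadjusted p under 0.05), day 5 of batch 2 (2779), day 6 of batch 2 (3069), day 7 of batch 1 (2780) or day 8 of batch 1 (3070). A single gene, Tmsb4x (named because it was the only one), passed without day 8 of batch 2. Without day 6 of batch 1, in contrast, 914 genes rose and 623 fell, and without day 7 of batch 2, 588 rose and 245 fell. Without the batch block 1 gene, Mir142, passed, again named for being the only one. These values apply to every count of genes and of list members given below. Within batch 1 alone 114 genes rose and 1 fell (0.931% of genes), and within batch 2 alone 0 passed by limma, with 2691 (21.8%) at an unadjusted p under 0.05.

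**Figure D2:**
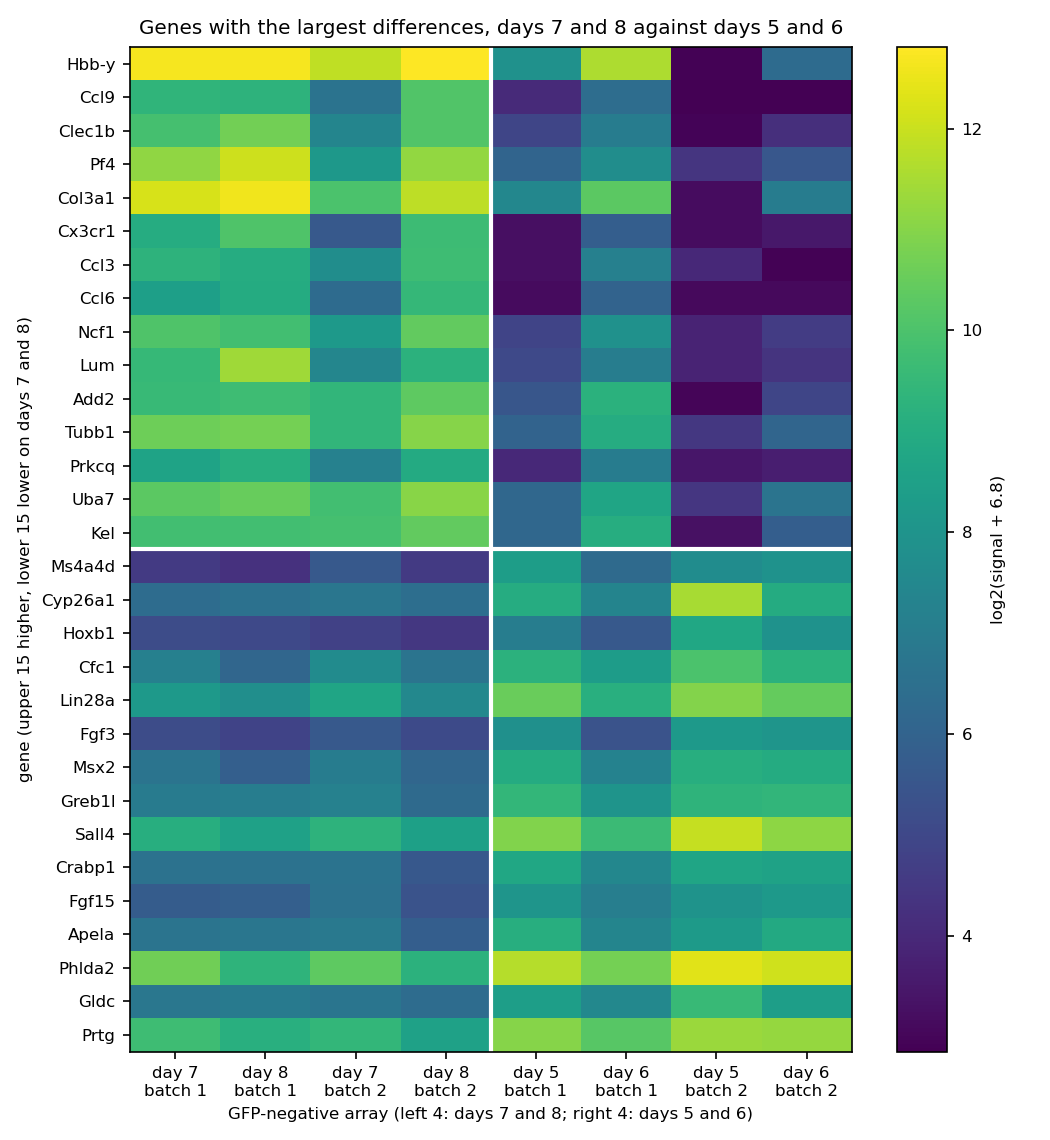
log2(signal + 6.8) of the 15 genes with the highest and the 15 with the lowest difference among those past the threshold, on the 4 arrays of days 7 and 8 (left of the white line) and the 4 of days 5 and 6 (right). Hbb-y, Col3a1 and Pf4 are bright on the left and dim on day 5 of batch 2, and day 6 of batch 1 has the highest early signal for each of the 15 genes that rose and the lowest for each of the 15 that fell.

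Genes of red blood cells made up part of the rise. Hbb-y, which encodes an embryonic beta-type globin, had the largest difference of the named genes that rose. Its signal was 6494 and 6559 in batch 1 and 3674 and 7176 in batch 2 on days 7 and 8, against 232 and 3094 in batch 1 and 0.7 and 73.6 in batch 2 on days 5 and 6. All 4 later arrays stood above the 4 earlier ones, but day 6 of batch 1 was close to the later arrays and day 5 of batch 2 was at background. The difference was 5.32 ± 1.18 (39.9-fold on this scale, adjusted p = 0.04579 by limma), made up of 2.92 in batch 1 and 7.71 in batch 2, and it was 6.54 without day 6 of batch 1 and 4.15 without day 5 of batch 2. Hbb-bh1, another embryonic beta-type globin, read 9660.0 and 8605 in batch 1 and 9456 and 8237 in batch 2 on days 7 and 8, against 7282 and 9231 in batch 1 and 40.8 and 10114 in batch 2 on days 5 and 6. Its groups overlapped, with day 5 of batch 2 alone far below the rest, and the difference of 1.91 ± 1.43 did not pass (adjusted p = 0.4246). The embryonic alpha-type globin Hba-x had 3.09 ± 1.59 (adjusted p = 0.251). Globin genes are close in sequence, so their probe sets may share signal.

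Some membrane genes of red cells passed the test, namely Kel and Ermap, which encode carriers of blood groups (3.88 ± 0.87 and 3.72 ± 0.80), Rhag, which encodes a protein of the Rh complex (3.68 ± 0.82), and Add2, a beta adducin of the membrane skeleton (4.09 ± 0.95). Kel had signals of 891 and 872 in batch 1 and 922 and 1370.2 in batch 2 on days 7 and 8, against 64.6 and 522 in batch 1 and 3.1 and 50 in batch 2 on days 5 and 6. The groups did not overlap. Fech, the last enzyme of haem synthesis, also rose (2.16 ± 0.49, adjusted p = 0.04696). Alas2, the erythroid first enzyme of the same pathway, had a difference of 3.95 ± 1.19 and the anion exchanger Slc4a1 one of 4.53 ± 1.15, and neither passed (adjusted p = 0.08271 and 0.05674). Other membrane genes that did not pass were Ank1 (1.79 ± 0.49, adjusted p = 0.06728) and Sptb (1.46 ± 0.46, 0.09141) of the membrane skeleton, Rhd of the Rh group (1.49 ± 0.43, 0.07372) and Epb42, protein 4.2 (2.84 ± 1.02, 0.1197). Nor did the erythroid transcription factor genes Klf1 (2.16 ± 1.08) and Gata1 (1.46 ± 0.69). In a list of 22 red cell genes, chosen after values were seen, 6 of 19 tested members rose and 0 fell, against 3.59% and 1.14% of all genes. All 19 differences were positive, with a median of 2.99 (0.85 in batch 1 and 5.09 in batch 2). In all 19 the difference was larger in batch 2, a description, since the share of all genes was not counted. Leaving out 1 array gave 3.04 to 4.80 for Kel and 3.34 to 5.19 for Add2, in each case lowest without day 5 of batch 2 and highest without day 6 of batch 1.

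Several genes of megakaryocytes and platelets rose. Pf4, which encodes platelet factor 4, had signals of 2252 and 4199.7 in batch 1 and 281 and 2341 in batch 2 on days 7 and 8, against 59.9 and 205 in batch 1 and 14.3 and 40.4 in batch 2 on days 5 and 6. The lowest later array, day 7 of batch 2, stood above the highest earlier one, day 6 of batch 1. The difference was 4.70 ± 0.64 (26-fold, adjusted p = 0.03715), and it was 4.70 in each batch. Clec1b, a platelet receptor for podoplanin, had signals of 931 and 1647 in batch 1 and 160.5 and 1101 in batch 2 on days 7 and 8, against 23.7 and 125 in batch 1 and 0.8 and 11.7 in batch 2 on days 5 and 6. Its groups did not overlap and differed by 4.74 ± 0.67 (adjusted p = 0.03715). Tubb1, the beta tubulin of the platelet's marginal band, had signals of 1544 and 1712 in batch 1 and 668 and 2026 in batch 2 on days 7 and 8, against 58.3 and 506 in batch 1 and 15.5 and 61.6 in batch 2 on days 5 and 6. Day 7 of batch 2 was again the lowest later array, and the difference was 4.03 ± 0.70 (adjusted p = 0.03715). Genes of the platelet receptor for von Willebrand factor rose as well, namely Gp9 (3.49 ± 0.58), Gp1bb (3.34 ± 0.62) and Gp5 (2.58 ± 0.51). Itga2b and Itgb3, the subunits of the platelet fibrinogen receptor, had 1.89 ± 0.50, which did not pass (adjusted p = 0.06216), and 2.76 ± 0.56, which did (adjusted p = 0.04041). Of a list of 20 such genes, chosen after values were seen, 10 of 16 tested rose (all genes 3.59%) and 0 fell (all genes 1.14%). All 16 had a positive difference, with a median of 2.90. Of the 16, 3 entered the test only through days 7 and 8, Gp9 and Gp1bb among them. That median was 2.93 in batch 1 and 2.96 in batch 2, and the difference was larger in batch 2 for 8 of the 16. Single genes differed more between the batches, with 3.16 in batch 1 and 4.91 in batch 2 for Tubb1, and 2.93 and 1.54 for Vwf. Leaving out 1 array gave 4.09 to 5.30 for Pf4 and 4.10 to 5.25 for Clec1b, both lowest without day 8 of batch 2, and 3.53 to 4.80 for Tubb1, highest without day 6 of batch 1.

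Several macrophage genes rose. Csf1r, the receptor of macrophage colony-stimulating factor, had signals of 1494 and 2716 in batch 1 and 188 and 1978 in batch 2 on days 7 and 8, against 49.7 and 269 in batch 1 and 35.2 and 57.1 in batch 2 on days 5 and 6. Day 7 of batch 2 lay below day 6 of batch 1, so the stages overlapped, although they were separate within each batch. The difference was 3.80 ± 0.72 (13.9-fold, adjusted p = 0.03728). Cx3cr1, the fractalkine receptor, had signals of 508 and 1054 in batch 1 and 43 and 811 in batch 2 on days 7 and 8, against 2.7 and 50.5 in batch 1 and 2.3 and 4.5 in batch 2 on days 5 and 6. The same pair of arrays overlapped, and the difference was 4.65 ± 0.85 (adjusted p = 0.03715). Ptprc, the gene of the pan-leukocyte antigen CD45, had signals of 301 and 344 in batch 1 and 52.4 and 523 in batch 2 on days 7 and 8, against 1.8 and 67 in batch 1 and 5.7 and 4.1 in batch 2 on days 5 and 6, with a difference of 3.81 ± 0.76 (adjusted p = 0.04041) and the same overlap. The chemokine genes Ccl9 (4.81 ± 0.76), Ccl3 (4.59 ± 0.81) and Ccl6 (4.48 ± 0.75) rose, as did Ncf1 (4.31 ± 0.70), a subunit of the phagocyte NADPH oxidase, and Cybb (2.55 ± 0.54), its catalytic subunit. Without day 8 of batch 2 the differences were lowest for Csf1r (3.18), Cx3cr1 (3.91), Ptprc (3.16), Ccl9 (3.98), Ccl6 (3.78) and Ncf1 (3.70), and for Ccl3 without day 5 of batch 1 (3.94). They were highest without day 7 of batch 2 for Csf1r (4.51) and Cx3cr1 (5.52), and without day 6 of batch 1 for Ptprc (4.46), Ccl9 (5.44), Ccl3 (5.51), Ccl6 (5.13) and Ncf1 (5.05).

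Of 30 macrophage genes, also chosen after values were seen, 25 were tested. Of these 16 rose (all genes 3.59%) and 0 fell (all genes 1.14%). All 25 differences were positive, with a median of 2.92 (3.30 in batch 1 and 2.43 in batch 2). Of the 16 that rose, 11 reached the signal filter of 22.5 on fewer than 2 early arrays, among them Cx3cr1, Ptprc, Ccl9, Ccl3, Ccl6 and Cybb. Those 11 were tested only through their signal on days 7 and 8, where they are high. Of all 25 tested members, 15 reached that filter on fewer than 2 early arrays. The count of 16, the 25 positive signs and the median are therefore a description and no support for a rise of the list. Spi1, the gene of the myeloid transcription factor PU.1, had 1.53 ± 0.43 (adjusted p = 0.07026), and the macrophage antigen gene Adgre1 had 1.96 ± 0.57 (adjusted p = 0.07416). Laptm5 (0.02 ± 0.23), Cd68 (0.25 ± 0.41) and Mrc1 (0.30 ± 0.32) did not pass. In a shorter list of 21 blood genes, 4 of 18 tested members rose (Hbb-y, Pf4, Ptprc and Csf1r), against 3.59% of all genes, and 0 fell. All 18 were positive, with a median of 1.90, against -0.01 for all genes. That median was 0.33 in batch 1 and 3.26 in batch 2. Its early transcription factor genes did not pass, with 0.78 ± 0.47 for Tal1, 0.93 ± 0.54 for Runx1 and 0.98 ± 0.59 for Lmo2.

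**Figure D3:**
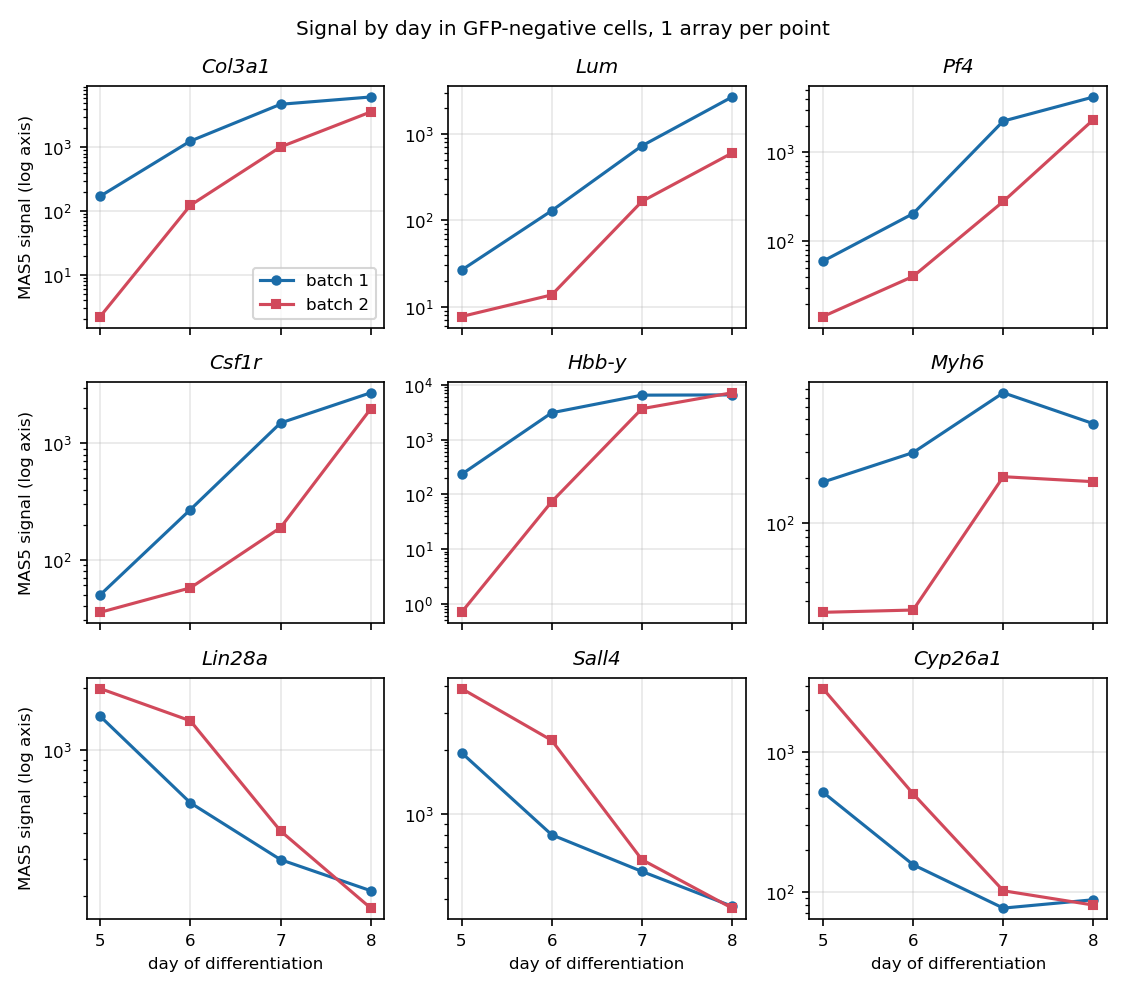
MAS5 signal (log axis) by day of differentiation for 9 genes in GFP-negative cells, with 1 array per point and 1 line per batch. Col3a1, Lum, Pf4, Csf1r and Hbb-y climb over the 4 days with batch 2 below batch 1 on days 5 to 7, and Lin28a and Sall4 decline with batch 2 above batch 1 on those days. Cyp26a1 has the same order of batches and falls to day 7, with 76.2 on day 7 and 87.5 on day 8 of batch 1. Myh6 is highest on day 7 in both batches.

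Several genes of the fibrillar matrix rose over the same days. Col3a1, the alpha chain of type III collagen, had signals of 4769 and 6211 in batch 1 and 1018 and 3617 in batch 2 on days 7 and 8, against 171 and 1259 in batch 1 and 2.2 and 123 in batch 2 on days 5 and 6. Day 7 of batch 2 stood below day 6 of batch 1, and day 5 of batch 2 was at background. The difference was 4.67 ± 0.95 (25.4-fold, adjusted p = 0.04041), with 3.52 in batch 1 and 5.82 in batch 2, and it was 3.67 without day 5 of batch 2 and 5.46 without day 6 of batch 1. Chains of type V collagen, which joins type I fibrils, rose too (Col5a2 by 3.07 ± 0.53 and Col5a1 by 1.64 ± 0.36). Pcolce, the enhancer of the proteinase that matures fibrillar collagen, rose by 2.08 ± 0.34 (adjusted p = 0.03715). The type I chains Col1a1 (1.74 ± 0.49) and Col1a2 (2.50 ± 0.71) and the cross-linking enzyme Lox (2.12 ± 0.56) had positive differences that did not pass (adjusted p = 0.07026, 0.07185 and 0.06226). The type IV chains of basement membranes had -0.26 ± 0.32 for Col4a1 and -0.24 ± 0.26 for Col4a2. In all, 4 of 20 tested members of the collagen list rose, against 3.59% of all genes, 0 fell and 18 were positive, with a median of 0.89 (1.35 in batch 1 and 0.46 in batch 2).

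Lum, which encodes the small leucine-rich proteoglycan lumican, had signals of 726 and 2669 in batch 1 and 165 and 599.7 in batch 2 on days 7 and 8, against 26.5 and 129 in batch 1 and 7.7 and 13.7 in batch 2 on days 5 and 6. All 4 later arrays stood above the earlier ones. The difference was 4.30 ± 0.58 (19.8-fold, adjusted p = 0.03715). Dcn, the related proteoglycan decorin, rose by 3.22 ± 0.58 (adjusted p = 0.03715) and Bgn, biglycan, by 1.92 ± 0.44 (adjusted p = 0.04729). Postn, which encodes the matricellular protein periostin, had signals of 3491 and 4703 in batch 1 and 1283 and 2569.8 in batch 2 on days 7 and 8, against 206 and 1453 in batch 1 and 20.5 and 169 in batch 2 on days 5 and 6. Here day 7 of batch 2 lay below day 6 of batch 1, and the difference was 3.79 ± 0.75 (adjusted p = 0.04023). Thbs1 (thrombospondin 1, 2.53 ± 0.51) and Tnc (tenascin C, 1.82 ± 0.30) also rose. General mesenchyme genes in the same list did not pass, among them Vim (vimentin, 0.03 ± 0.20), Fn1 (fibronectin, -0.26 ± 0.23), Pdgfra (0.03 ± 0.30) and Twist1 (-0.40 ± 0.19). Bgn, Tnc and Thbs1 reached the signal filter on fewer than 2 early arrays and were tested only through days 7 and 8. Of the 23 tested members of this second matrix list 6 rose, against 3.59% of all genes, 0 fell and 18 were positive, with a median of 0.45 (0.83 in batch 1 and 0.05 in batch 2). Leaving out 1 array gave 3.07 to 4.53 for Postn, lowest without day 5 of batch 2, and 2.62 to 3.66 for Dcn, lowest without day 8 of batch 1.

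Since the stem cells had been kept on fibroblast feeders, genes of fibroblasts were tabulated beside these values. Of 14 such genes 9 were tested, and 4 rose, namely Col3a1, Lum, Postn and Dcn, which the matrix lists hold too, against 3.59% of all genes. Of the 9 differences 8 were positive and 1 negative, with a median of 2.50 (2.63 in batch 1 and 2.37 in batch 2). By limma 7 of the 9 had an unadjusted p under 0.05, where 26.5% of all genes stood. The summed signal of the 9 was 3419 to 20237 on days 7 and 8 and 286 to 3995 on days 5 and 6, with an overlap. The fibroblast surface gene Thy1 averaged 15.2 on days 7 and 8 and 29.1 on days 5 and 6 (-0.57 ± 0.42, adjusted p = 0.4118). S100a4, Fap, Ccl2 and Ccl7 did not reach the signal filter of 22.5 on any of the 8 arrays. The part of remaining feeder cells in the rise of the collagen and proteoglycan genes was not tested.

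Of 22 tested members of the list for the heart muscle sarcomere, the contractile unit of muscle, 8 rose in this fraction too (all genes 3.59%), 7 sarcomere genes and Myl9. Myh6, the alpha myosin heavy chain, had signals of 754 and 466 in batch 1 and 205 and 189.7 in batch 2 on days 7 and 8, against 188 and 298 in batch 1 and 25 and 25.9 in batch 2 on days 5 and 6. The stages overlapped, with batch 1 above batch 2 on every day, and within each batch both later arrays were higher. The difference was 1.98 ± 0.31 (3.94-fold, adjusted p = 0.03715), with 1.30 in batch 1 and 2.66 in batch 2. The giant protein gene Ttn (1.72 ± 0.30), the M-band gene Myom1 (2.38 ± 0.41), the beta heavy chain gene Myh7 (1.47 ± 0.27), the cardiac actin gene Actc1 (1.71 ± 0.39), the binding protein gene Mybpc3 (1.44 ± 0.26) and the light chain gene Myl3 (1.19 ± 0.26) rose as well. Myl9, a light chain of smooth muscle and non-muscle myosin, rose by 0.84 ± 0.14. None of the 22 fell and all differences were positive, with a median of 1.33 (0.76 in batch 1 and 1.74 in batch 2). The troponin genes Tnnt2 (2.06 ± 0.98) and Tnni1 (2.17 ± 1.02) had large differences that did not pass (adjusted p = 0.2187 and 0.2144), and Tnnc1 (0.41 ± 0.53) and Tpm1 (0.11 ± 0.23) lay within their error.

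Promoters are shown for the members of the sarcomere list, Myl9 included, that rose and hold a CArG box, the site known for serum response factor, since these members moved together. A CArG box is a run of 10 bases with CC, then 6 that are each A or T, then GG, and it was searched on both strands from 250 bases before to 50 after each start in the RefSeq table for build GRCm38.p6. The 8 genes that rose matched 9 promoters, of which 4 held a box, compared with 535 of 32851 promoters in the whole table (1.63%). Members of the list that did not pass were not counted apart. Whether the box goes with the rise or with membership of the list was therefore not tested. The boxes, in capitals below, begin 47 bases before the start in Actc1 (chr2:114052826-114053125, minus strand), 161 in Myl9 (chr2:156775214-156775513, plus strand), 85 in Myl3 (chr9:110763428-110763727, plus strand) and 99 in Myom1 (chr17:71019307-71019606, plus strand). Sequences run 5′ to 3′ on the strand of the gene.
Actc1: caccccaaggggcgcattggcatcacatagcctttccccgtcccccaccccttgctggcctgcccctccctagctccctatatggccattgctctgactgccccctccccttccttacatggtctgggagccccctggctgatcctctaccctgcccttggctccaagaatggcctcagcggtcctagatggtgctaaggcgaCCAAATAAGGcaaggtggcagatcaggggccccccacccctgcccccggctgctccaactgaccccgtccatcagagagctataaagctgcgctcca
Myl9: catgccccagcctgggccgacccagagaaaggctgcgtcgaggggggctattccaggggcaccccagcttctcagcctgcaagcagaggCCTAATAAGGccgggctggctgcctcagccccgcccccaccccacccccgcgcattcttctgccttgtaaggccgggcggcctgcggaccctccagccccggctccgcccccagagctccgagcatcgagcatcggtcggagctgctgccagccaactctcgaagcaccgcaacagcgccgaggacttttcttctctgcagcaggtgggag
Myl3: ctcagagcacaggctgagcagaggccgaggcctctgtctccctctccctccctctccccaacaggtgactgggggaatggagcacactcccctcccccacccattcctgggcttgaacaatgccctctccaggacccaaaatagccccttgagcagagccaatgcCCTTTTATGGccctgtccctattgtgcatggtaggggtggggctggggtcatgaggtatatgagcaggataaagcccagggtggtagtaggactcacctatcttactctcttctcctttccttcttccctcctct
Myom1: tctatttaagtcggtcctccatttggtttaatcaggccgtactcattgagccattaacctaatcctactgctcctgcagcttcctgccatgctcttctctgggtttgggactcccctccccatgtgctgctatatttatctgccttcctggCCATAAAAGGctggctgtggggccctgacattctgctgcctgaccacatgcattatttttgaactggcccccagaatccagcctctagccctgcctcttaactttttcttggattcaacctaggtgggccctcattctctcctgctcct

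The box is a description of the sequence, not of binding. AGATAA, a form of the GATA factors' motif, was found in 1 of the 9 promoters, that of Myom1, against 11.2% of all promoters. CACGTG (7.15% of all promoters) and TGACTCA (5.2%) were in none of the 9. Among the stress genes described below that rose, 1 of 5 promoters, that of Zfp36, held a CArG box. Of the matrix genes beside the collagens, 3 of the 6 that rose had promoters in the table, 5 in number, and none held any of these 4 motifs.

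Of the 19 transcription factor genes of the heart tested, limma called 0 at the threshold, with 8 at an unadjusted p under 0.05, where 26.5% of all genes stood. Nkx2-5 itself had signals of 106 and 76.3 in batch 1 and 75.5 and 79.4 in batch 2 on days 7 and 8, against 95.2 and 107 in batch 1 and 57.3 and 43.5 in batch 2 on days 5 and 6. The stages overlapped and the difference was 0.20 ± 0.22 (adjusted p = 0.5822). The lowest p-values of the list belonged to Tbx3, a T-box repressor of the conduction system (-1.72 ± 0.42, adjusted p = 0.05178), and Meis1, a homeobox gene (1.34 ± 0.35, adjusted p = 0.05911). In this list 11 differences were positive, with a median of 0.20. The smooth muscle list had 0 of 12 past limma's threshold, with 5 at an unadjusted p under 0.05 (all genes 26.5%), and a median of 0.42, with Acta2, the smooth muscle actin, at 1.24 ± 0.48 (adjusted p = 0.1427). For endothelium 0 of 22 passed by limma, with 6 at an unadjusted p under 0.05 (all genes 26.5%) and a median of 0.40. Its highest difference was that of Vwf, von Willebrand factor, which platelets hold as well (2.23 ± 0.55, adjusted p = 0.05341), while the vessel receptor gene Kdr had -0.43 ± 0.30 and the cadherin gene Cdh5 0.07 ± 0.29.

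Of 21 genes of the pluripotent state and epiblast tested, 4 fell on days 7 and 8 (all genes 1.14%) and 17 did not pass. Lin28a, an RNA-binding protein that blocks let-7 maturation, had signals of 298 and 211 in batch 1 and 409 and 174 in batch 2 on days 7 and 8, against 1456 and 559 in batch 1 and 1979 and 1385 in batch 2 on days 5 and 6. Every later array stood below every earlier one, and the difference was -2.21 ± 0.37 (adjusted p = 0.03715). Sall4, a zinc finger transcription factor of stem cells, had signals of 539 and 369.7 in batch 1 and 612 and 363 in batch 2 on days 7 and 8, against 1944 and 801 in batch 1 and 3892 and 2223 in batch 2 on days 5 and 6. The groups did not overlap, and the difference was -2.05 ± 0.37 (adjusted p = 0.03715). Dnmt3b, the DNA methyltransferase of the epiblast, fell as well (-1.64 ± 0.33). The fourth was the forkhead gene Foxd3 (-1.42 ± 0.33), whose signals were 2.5 and 2.9 in batch 1 and 7.2 and 1.7 in batch 2 on days 7 and 8, against 23.6 and 11.5 in batch 1 and 30.7 and 19.4 in batch 2 on days 5 and 6. It reached the signal filter of 22.5 on the day 5 arrays only, so it could be tested only because it was high there. Pou5f1, the gene of Oct4, had signals of 27.9 and 36.4 in batch 1 and 49.9 and 45.6 in batch 2 on days 7 and 8, against 229.6 and 48.3 in batch 1 and 1161 and 127 in batch 2 on days 5 and 6. Its highest value was on day 5 of batch 2. The difference of -2.21 ± 0.69 did not pass (adjusted p = 0.08871) and was -1.45 without that array. Nanog had -2.14 ± 0.72 (adjusted p = 0.1042). Of the 4 that fell, 3 could also have been tested on the later arrays alone, and Foxd3 could not. No member rose and 2 differences were positive, with a median of -1.18 (-0.85 in batch 1 and -1.56 in batch 2). Of the 21 tested, 4 reached the signal filter on fewer than 2 of the later arrays, so the signs and the median are a description. The members' summed signal was 2176 to 3020 on days 7 and 8 and 3470.0 to 22648 on days 5 and 6, without overlap.

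Of 19 primitive streak and early mesoderm genes tested 2 fell, against 1.14% of all genes. Cyp26a1, which encodes the enzyme that clears retinoic acid, had signals of 76.2 and 87.5 in batch 1 and 102 and 80.1 in batch 2 on days 7 and 8, against 517 and 156 in batch 1 and 2865 and 504 in batch 2 on days 5 and 6. The later arrays lay in a narrow range below all earlier ones. The difference was -2.68 ± 0.62 (adjusted p = 0.04711), and it was -1.99 without day 5 of batch 2 and -3.21 without day 6 of batch 1. Fgf3, a fibroblast growth factor, fell by 2.21 ± 0.49 on the log2 scale (adjusted p = 0.04579), and its difference was -2.81 without day 6 of batch 1. The remaining members did not pass. Among them were the streak transcription factor genes Lhx1 (-2.74 ± 0.72, adjusted p = 0.06125), Eomes (-2.50 ± 0.83, adjusted p = 0.104) and Mesp1 (-2.50 ± 0.84, adjusted p = 0.106). None rose, and all 19 differences were negative, some of them within their error, such as Snai1 (-0.16 ± 0.30), with a median of -1.54 (-0.71 in batch 1 and -2.18 in batch 2). Of the 19, 6 reached the signal filter on fewer than 2 of the later arrays and were tested only through days 5 and 6. The shared sign and the median are therefore a description and no support for a fall of the list. The brachyury gene was not analysed here, having no probe set of its own.

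Outside these lists further genes fell. Hoxb1, the first gene of the Hoxb cluster, fell by 2.49 ± 0.54 on the log2 scale (adjusted p = 0.04322). It was the only one of 16 Hox genes tested that passed (of all genes 1.14% fell), a single call that is no result about the list. Its neighbours Hoxb2 (-0.81 ± 0.20) and Hoxb3 (-0.47 ± 0.29) did not, and Hoxc10, of the 5′ part of its cluster, had the highest difference (1.35 ± 0.32, adjusted p = 0.05087). Of the 16 differences 8 were positive. Cfc1, a co-receptor for Nodal (-2.28 ± 0.34), Crabp1, a retinoic acid binding protein (-2.02 ± 0.36), Fgf15, a growth factor (-1.93 ± 0.30), Apela, a peptide ligand of the apelin receptor (-1.88 ± 0.40), Gldc, of the glycine cleavage system (-1.76 ± 0.37), and Prtg, a cell surface protein of the immunoglobulin family (-1.72 ± 0.31), fell. Greb1l fell too (-2.15 ± 0.35). Ms4a4d, a member of the membrane-spanning MS4A family, had signals of 16.2 and 12.7 in batch 1 and 42.5 and 16.6 in batch 2 on days 7 and 8, against 329 and 72.1 in batch 1 and 199 and 236 in batch 2 on days 5 and 6. Its groups did not overlap, and its difference of -2.83 ± 0.43 (adjusted p = 0.03715) was the most negative of the named genes.

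In the WNT and BMP list 2 of 28 tested members fell and 1 rose, against 1.14% and 3.59% of all genes, so the single rise is no result about the list. Msx2, a homeobox target of BMP signals, had signals of 96.1 and 52.2 in batch 1 and 123 and 63.4 in batch 2 on days 7 and 8, against 502 and 146 in batch 1 and 537 and 499 in batch 2 on days 5 and 6. Day 8 of batch 1 and day 8 of batch 2 were lowest, the groups did not overlap, and the difference was -2.15 ± 0.39 (adjusted p = 0.03715). The ligand gene Bmp2 fell by 1.13 ± 0.25 on the log2 scale (adjusted p = 0.04377), while Wnt2, a ligand of the heart and lung mesoderm, had signals of 246 and 324 in batch 1 and 134 and 121 in batch 2 on days 7 and 8, against 118 and 126 in batch 1 and 40.3 and 70.8 in batch 2 on days 5 and 6. Day 8 of batch 2 lay below day 6 of batch 1, so the stages overlapped, and Wnt2 rose by 1.16 ± 0.19 (adjusted p = 0.03715). Lef1 (-1.91 ± 0.55) and Axin2 (-1.26 ± 0.43), which respond to WNT, and Id3 (-1.33 ± 0.35), which responds to BMP, did not pass. The list's median was -0.73, with 7 positive.

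In the imprinted growth list 1 of 18 members rose and 1 fell, against 3.59% and 1.14% of all genes, and single calls like these are no result about the list. Plagl1, a zinc finger transcription factor, had signals of 219 and 466 in batch 1 and 99.1 and 151 in batch 2 on days 7 and 8, against 30.1 and 37.7 in batch 1 and 3.7 and 26.8 in batch 2 on days 5 and 6. All later arrays stood above the earlier ones, and the difference was 2.90 ± 0.38 (adjusted p = 0.03715). Phlda2, which restrains placental growth, fell by 1.82 ± 0.40 on the log2 scale (adjusted p = 0.04407). Dlk1, a non-canonical Notch ligand, had 2.19 ± 0.54 (adjusted p = 0.05292) and Igf2 0.43 ± 0.42. Of 25 replication and mitosis genes, Mcm3 of the replicative helicase fell by 0.58 ± 0.13 on the log2 scale (adjusted p = 0.0449) and 24 did not pass, with a median of -0.23. Mki67 had 0.26 ± 0.23 and Top2a 0.00 ± 0.14. Of 8 DNA methylation enzymes, Dnmt3b fell and the demethylase gene Tet2 rose (1.11 ± 0.26, just under the threshold), while Tet1 had -1.16 ± 0.30 (adjusted p = 0.05749). Beside the same 3.59% and 1.14% of all genes, the single calls in the replication and methylation lists are no result about those lists either. Of 18 glycolysis genes 0 passed by limma, with 4 at an unadjusted p under 0.05 (all genes 26.5%). The neural list also had 0 of 12, with 5 at an unadjusted p under 0.05 (the same 26.5% of all genes), a median of -0.62 and its lowest difference in Stmn2 (-1.84 ± 0.44, adjusted p = 0.05049). Of these 12, 6 reached the signal filter on fewer than 2 of the later arrays and were tested only through days 5 and 6. The negative median of the neural list is therefore a description.

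Of 16 genes known to respond to cell dissociation, which the sort requires, 5 rose on days 7 and 8, against 3.59% of all genes. Zfp36, which promotes decay of mRNAs, had signals of 292 and 421 in batch 1 and 218 and 368 in batch 2 on days 7 and 8, against 82.6 and 115 in batch 1 and 50.8 and 88 in batch 2 on days 5 and 6. The groups did not overlap and the difference was 1.88 ± 0.25 (adjusted p = 0.03715). Fos (0.97 ± 0.21) and Jund (0.48 ± 0.10), of the AP-1 factor, Ier3 (0.82 ± 0.17) and the heat shock gene Hspa1a (1.48 ± 0.35, just under the threshold) rose too. Jund was negative, at -0.072, where all probe sets of a gene were averaged. None fell, and 13 of the 16 differences were positive, with a median of 0.63, against 0.88 in GFP-positive cells. Their summed signal was 11865 to 14480 on days 7 and 8 and 7717 to 9288 on days 5 and 6, without overlap. The part of dissociation in the other differences was not tested.

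**Figure D4:**
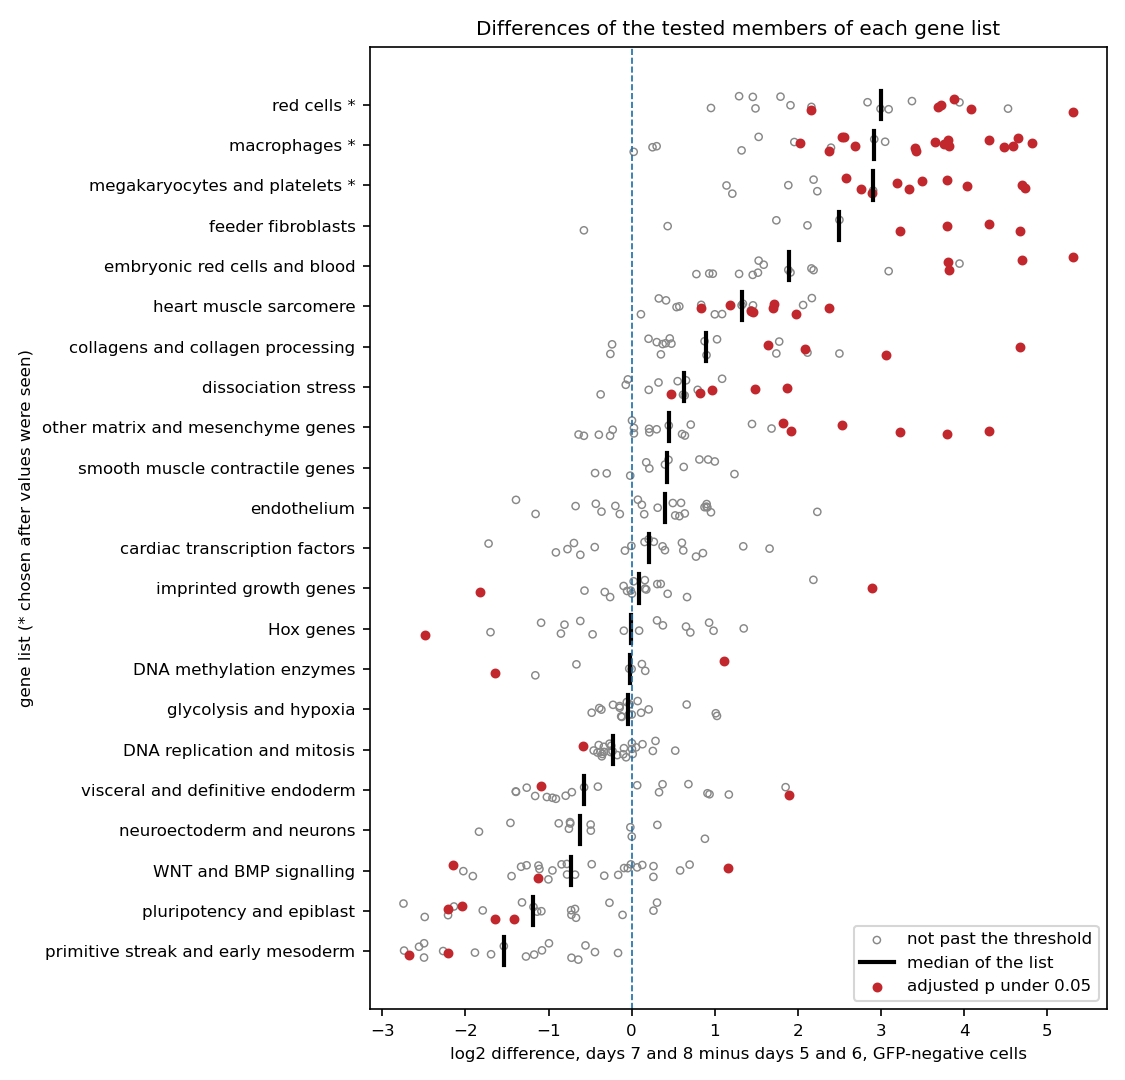
log2 difference, days 7 and 8 minus days 5 and 6, of every tested member of 22 gene lists in GFP-negative cells. Filled points passed the threshold, open points did not, and bars mark list medians, which run down the page from 2.99 for the red cell list to -1.54 for the primitive streak list. Some members were tested only through 1 stage, among them 15 of 25 in the macrophage list and 6 of 19 in the primitive streak list.

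To see which changes with time were particular to the GFP-negative cells, the difference between the stages was set against that of the GFP-positive cells in 1 model of 16 arrays. The test is that of the difference of differences. After stage and batch were fitted, the deviations of the GFP-negative and GFP-positive arrays of a day and batch correlated across genes in all 8 such pairs, by 0.1818 to 0.6628. By limma 0 of 12352 genes passed (0%), the lowest adjusted p being 0.06287, and 1351 (10.9%) had an unadjusted p under 0.05. With each pair as a block, a fit added after the data were seen (5 residual degrees of freedom), limma called 110 genes, 13 with a higher (0.105%) and 97 with a lower difference (0.785%) in GFP-negative cells, and 2614 (21.2%) had an unadjusted p under 0.05. The lowest adjusted p of that fit was 0.02823, and the calls between the fractions therefore depend on the pairing. Of the 585 genes that changed in GFP-negative cells, 567 had the same sign in GFP-positive cells, 441 of the 444 that rose and 126 of the 141 that fell. The blood and matrix genes were among them. The share of all genes tested with the same sign in both fractions was not counted. The fractions of a day and batch also deviate together, so these counts are a description and no result about the 585 genes. Between the stages Pf4 differed by 4.70 in GFP-negative and by 3.09 in GFP-positive cells, and Col3a1 by 4.67 in GFP-negative and by 3.16 in GFP-positive cells, neither passing in the paired fit (adjusted p = 0.05242 and 0.1048). Of the macrophage and platelet lists, 3 genes had a larger rise in GFP-negative cells that passed in the paired fit and not without pairs, Tubb1 (2.04 ± 0.40, adjusted p = 0.04821), Ccl6 (1.72 ± 0.27, 0.04045) and Plek, pleckstrin of platelets and leukocytes (1.43 ± 0.25, 0.04253).

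The endoderm list had the widest gap between the fractions. In GFP-negative cells 1 of its 21 tested members rose and 1 fell, against 3.59% and 1.14% of all genes, so these single calls are no result about the list. The median was -0.57 (-0.16 in batch 1 and -1.02 in batch 2). In GFP-positive cells all 21 differences were positive, with a median of 1.96. All 21 differences were lower in GFP-negative than in GFP-positive cells, and 17 of them had an unadjusted p under 0.05 for that, against 10.9% of all genes. In the paired fit 20 of the 21 had one, against 21.2% of all genes, and 9 passed the threshold, all 9 lower in GFP-negative cells, against 0.785% of all genes. Spink1, a trypsin inhibitor made by visceral endoderm, had signals of 93.9 and 75.8 in batch 1 and 197 and 105 in batch 2 on days 7 and 8, against 375 and 117 in batch 1 and 415 and 444 in batch 2 on days 5 and 6 in GFP-negative cells. In GFP-positive cells its signal was 1422 and 1333 in batch 1 and 579 and 1095 in batch 2 on days 7 and 8, against 285 and 366 in batch 1 and 98.4 and 318 in batch 2 on days 5 and 6. The stages differed by -1.39 ± 0.34 in GFP-negative and by 2.09 in GFP-positive cells, a difference between the fractions of -3.49 ± 0.52 (adjusted p = 0.06287 without pairs and 0.04045 with pairs as a block).

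Further members of the endoderm list passed in the paired fit and not without pairs. Apoe, apolipoprotein E, differed between the stages by -0.95 in GFP-negative and 0.65 in GFP-positive cells (adjusted p = 0.07776 without and 0.04045 with pairs). Amn, the partner of cubilin in endocytosis, had -1.16 and 0.94 (0.07776 and 0.0462), and the epithelial adhesion gene Epcam -1.26 and 2.03 (0.09868 and 0.04253). The transport protein genes Rbp4 (-2.35 ± 0.32 for the paired difference between the fractions), Apom (-2.78 ± 0.43) and Ttr (-1.78 ± 0.29) passed there as well. Krt18, a keratin of simple epithelia, was the member that fell in GFP-negative cells, with 1602 and 1593 in batch 1 and 1557 and 976 in batch 2 on days 7 and 8, against 3918 and 2257 in batch 1 and 2471 and 3741 in batch 2 on days 5 and 6. The groups did not overlap, the difference was -1.10 ± 0.23 (adjusted p = 0.04194), and in GFP-positive cells it was 0.75 (paired adjusted p of the difference = 0.04253). Apoa1, apolipoprotein A-I, was the member that rose, by 1.90 ± 0.31 (adjusted p = 0.03715), and its GFP-positive difference was 4.32 (paired adjusted p of the difference = 0.04253). The yolk sac genes Afp (1.85 ± 1.08) and Ttr (1.17 ± 1.04) did not pass in GFP-negative cells.

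The sarcomere list stood at a median of 1.33 in GFP-negative and 2.35 in GFP-positive cells. For the difference, 8 of its 22 members had an unadjusted p under 0.05, against 10.9% of all genes. In the paired fit 16 had one, against 21.2% of all genes, and 0 passed by limma. Myh6 had a GFP-positive difference of 3.65, and the fractions differed in this by -1.67 ± 0.90 (adjusted p = 0.5341, and 0.1067 in the paired fit). In GFP-positive cells its signal was 2921 and 2478 in batch 1 and 1193 and 2593 in batch 2 on days 7 and 8, against 729.5 and 1078 in batch 1 and 19.5 and 37.3 in batch 2 on days 5 and 6. The later GFP-positive arrays stood above every GFP-negative array. Nkx2-5 had signals of 292 and 249 in batch 1 and 216 and 323 in batch 2 on days 7 and 8, against 170.0 and 184 in batch 1 and 60.6 and 67.4 in batch 2 on days 5 and 6 in GFP-positive cells. It differed between stages by 0.20 in GFP-negative and 1.26 in GFP-positive cells, with a difference of -1.06 ± 0.37 (adjusted p = 0.2918, and 0.05451 in the paired fit). Nkx2-5 was lower in GFP-negative than in GFP-positive cells on each day of each batch.

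Genes that fell or rose in GFP-negative cells with the opposite sign in GFP-positive cells included Gldc (-1.76 and 0.44, adjusted p of the difference = 0.1021), Apela (-1.88 and 0.81, 0.1656) and Wnt2 (1.16 and -0.09, 0.1155), none of which passed without pairs. In the paired fit Gldc passed (0.04046), and Apela (0.05292) and Wnt2 (0.06536) did not. The pluripotency list had a median of -1.18 in GFP-negative and -0.24 in GFP-positive cells, with 7 of 21 members at an unadjusted p under 0.05. The streak list had -1.54 and -0.14, with 5 of 19, where 10.9% of all genes stood. The paired fit called 3 of the 21, Sox2 (-2.57 ± 0.49), Sall4 (-1.19 ± 0.23) and Otx2 (-2.95 ± 0.47), and 2 of the 19, Foxa2 (-3.23 ± 0.60), which endoderm expresses too, and Cyp26a1 (-1.74 ± 0.25). It called 0.785% of all genes in that direction. The values in brackets are differences between the fractions. In GFP-negative cells the stages differed less than that for Sox2 (-0.72, adjusted p = 0.2863 by limma), Otx2 (-1.79, 0.08016) and Foxa2 (-1.69, 0.06226). None of these passed there, and their GFP-positive differences were positive. Sall4 (-2.05 and -0.86) and Cyp26a1 (-2.68 and -0.94) had negative differences in both fractions. Of the 16 Hox genes 8 had a positive difference in GFP-negative cells and 1 in GFP-positive cells, where the median was -0.59. Replication genes had medians of -0.23 and -0.55.

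**Figure D5:**
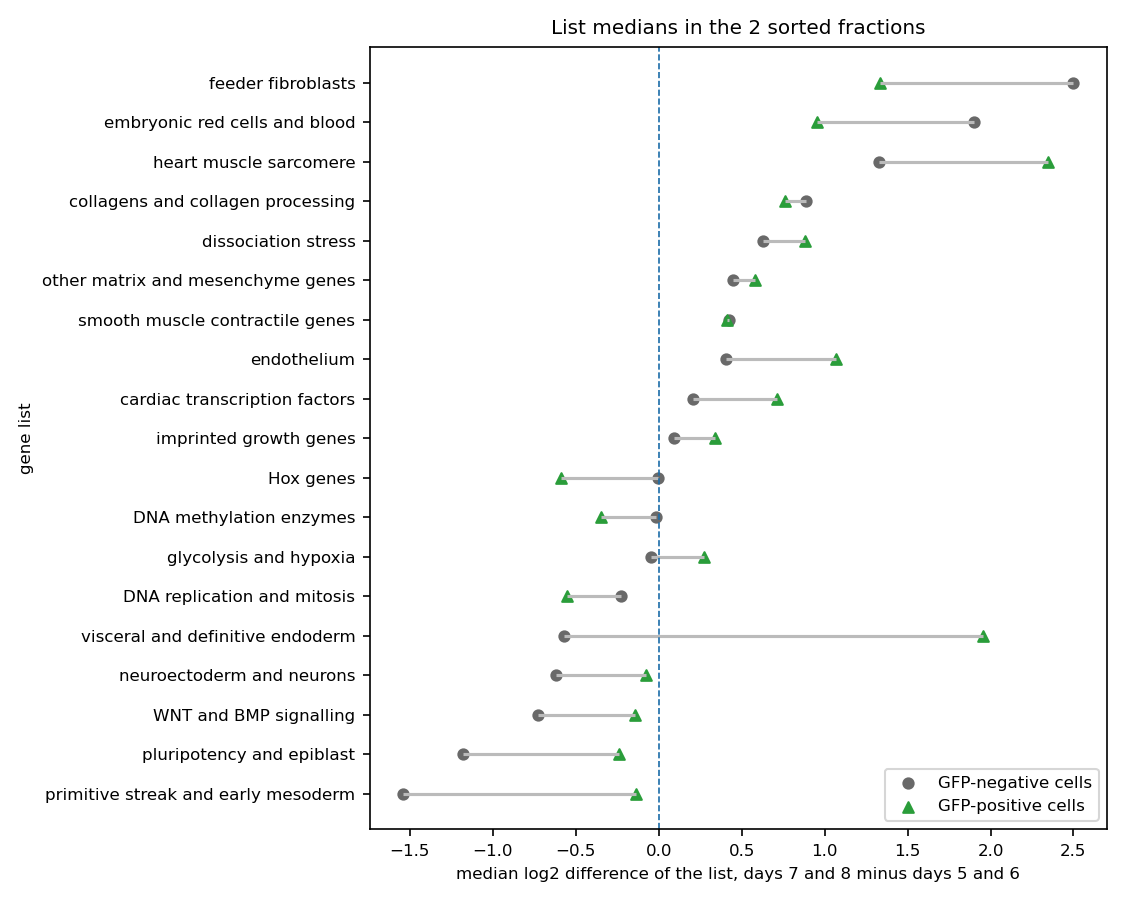
Median log2 difference, days 7 and 8 minus days 5 and 6, of 19 gene lists in GFP-negative cells (circles) and GFP-positive cells (triangles). The circles and triangles lie farthest apart for the endoderm list, at -0.57 and 1.96, and nearly coincide for smooth muscle genes, at 0.42 and 0.41.

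Whether the 2 batches of GFP-negative cells changed alike was tested by the product of stage and batch, which left 4 residual degrees of freedom. By limma 0 genes passed (0%), the lowest adjusted p being 0.44796, and 1354 (11%) had an unadjusted p under 0.05. Of the 585 genes that changed, the difference was larger in batch 2 for 387. The share of all genes tested with a larger difference in batch 2 was not counted. Their median absolute difference was 0.29 in batch 1 and 0.36 in batch 2, so the 387 is no result about the 585 genes. The medians that moved most between batches were those of the red cell list, 0.85 in batch 1 and 5.09 in batch 2, and of the other blood list, 0.33 and 3.26. Hbb-y, with 2.92 in batch 1 and 7.71 in batch 2, carried the same pattern among single genes. In simulated data of this layout the test of the product found 30% of genes with a difference of 2 on the log2 scale, so that 0 calls leave differences of that size possible.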

How the data were processed

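Total RNA of sorted cells was amplified in 2 rounds from a T7 oligo-dT primer, per the labels' protocols, and hybridised to Affymetrix mouse arrays. The deposited values are linear MAS5 signal intensity, for which the submitters' processing notes name GCOS 1.4. The mean over probe sets without the extreme 2% at each end lay between 150.0008 and 150.0012 on every array, and no detection calls were used here. Of 45101 probe sets, 64 controls, 9160 with no symbol and 932 with several were left out. Symbols came from the platform annotation; a check of 34741 probe sets by Entrez identifier changed 0. Each of 18193 genes was represented by its brightest probe set over the 18 arrays, and by one of type x only in the absence of others.

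Signals were analysed as log2(signal + 6.8), the offset being the 25th percentile of all signals. Testing was limited to the 12352 genes that reached 22.5, the table's median, on 2 or more of the 8 GFP-negative arrays. Python 3.11.15, R 4.3.3 and limma 3.58.1 were used (lmFit, and eBayes with a mean-variance trend). Stage and batch were the terms, 5 degrees of freedom remained, and p-values were adjusted after Benjamini-Hochberg with a threshold of 0.05. The difference between fractions was tested on 16 arrays with batch within each fraction (10 residual degrees of freedom). The fit with the arrays of a day and batch as a pair was added after the data were seen. The number in the titles is called a batch and so pairs the arrays. Correlations of batch differences between 6 pairs of days ranged from -0.2054 to 0.4065, and 3 were over 0.1. On simulated data of this layout (12352 genes) the comparison of stages found 50% of genes with a log2 difference of 1 and 96% with 2, and the comparison of fractions 33% and 89%. The simulated noise was independent for each array and gene. It had neither the lag between the batches nor the deviations shared by the fractions of a day and batch, so these shares may not hold for the real arrays. Alternatives concerned the batch block, the terms for days, the arrays in the fit, the offset, the scaling, the filter, the choice of probe set, the variance model and leaving out each array.

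Named genes are the 15 highest and 15 lowest differences among genes past the threshold that separated within both batches and had a mean signal of at least 100 in the higher stage, up to 5 members per list and direction, and Nkx2-5, Myh6 and Pou5f1. Other members are named as examples of their lists. The comparison, the members and the lists were chosen with earlier results of these data known, and the lists of macrophage, platelet and red cell genes after the values were seen. Members with no probe set of their own were not analysed here.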

Additional observations from a re-analysis of the deposited data

Results flagged for a closer look

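For 70 genes and both stages, 140 groups of 4 arrays in all, it was asked whether 1 array stood apart from the other three by Dixon's test on the log2 scale. Chance flags about 1 in 20 groups of like arrays, but each group here pools 2 days and 2 batches that are out of step, and the genes were chosen for their differences and are not independent, so that rate does not apply and the flags are a description. An array stood apart in 13 groups, and in 8 of these the array was day 6 of batch 1.

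That array gave the highest early signal for Cx3cr1 (50.5), Ccl6 (58.8), Prkcq (125.7) and Thbs1 (32.1), genes that rose on days 7 and 8. It gave the lowest early signal for Fgf3 (35.8), Msx2 (146.3), Greb1l (252.1) and Crabp1 (170.0), genes that fell. In each of these 8 genes the array lay on the side of the later stage.

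On days 7 and 8, day 8 of batch 2 was the lowest array for Crabp1 (41.2) and Krt18 (975.5) and the highest for Kel (1370.2). Day 7 of batch 2 was the lowest for Hbb-y (3674.0), and day 7 of batch 1 the highest for Nkx2-5 (105.5).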

How the results depend on the processing

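The main setting gave 444 higher and 141 lower genes between the stages. Without the batch block, the replicate block of this design, 1 and 0 passed (3146 at an unadjusted p under 0.05), and without the variance trend 0 and 0 (3144). A fit with the 4 day means and batch gave 665 and 285, all 16 sorted arrays 860 and 524, quantile scaling 423 and 216, no signal filter 170 and 34, the mean of all probe sets of a gene 305 and 77, and array weights 2129 and 1821. The other offsets, filters and equal array medians moved both counts by under 1.5 times. Leaving out 1 array gave 0 to 914 higher and 0 to 623 lower genes. Leaving out both day 5 of batch 2 and day 8 of batch 1, chosen after seeing the data, gave 0 and 0 (2284 at an unadjusted p under 0.05). For the difference between fractions, quantile scaling gave 3 lower genes (Spink1, Marveld2 and 9030622O22Rik, named as the only ones), and leaving out 1 array 0 to 7 higher and 0 to 123 lower. With the day and batch pairs as a replicate block, added after seeing the data, 13 were higher and 97 lower (2614 at an unadjusted p under 0.05). For the difference between batches, leaving out 1 array gave 0 to 33 higher and 0 to 14 lower. Batch 1 alone had 28 higher genes with a filter on the mean.

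Of 1539 values of 70 named genes under these alternatives, 899 kept their direction and side of the threshold, 601 kept the direction but were no longer past it, 38 came to pass it, and 1 reversed, Jund with the mean of its probe sets (-0.072). Leaving out 1 array moved the fold change of 21 of these genes by over 1.5 times with no change of sign, and beside those given with their values these were Prkcq (3.42 to 4.64 on the log2 scale), Uba7 (3.26 to 4.61) and Pou5f1 (-2.76 to -1.45). Scaling moved the median of all genes from -0.01 to -0.05 (quantile) or -0.06 (equal medians).

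MAS5 signal without detection calls leaves dim genes without a measured background, and 1 array per day and batch leaves no replicate within a day. The cause of the lag between the batches was not tested. Gapdh 3′ to 5′ ratios and dissociation genes moved with the stage.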
